A study of Mus musculus with 4 samples.

Results

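The genes described here are 10 chemokine and cytokine genes, chosen by name from the 27998 genes counted in the series: the chemokine ligands Ccl2, Ccl7, Cxcl1, Cxcl10, Cxcl12 and Cxcl14, the chemokine receptor Cxcr4, and the cytokines Il6, Lif and Csf1. The choice was made with earlier results of these data known. All 10 had at least 1 UMI (unique molecular identifier, a tag that marks a captured RNA molecule) in the myogenic cells of every library. They were measured in satellite cells, the stem cells of skeletal muscle, sorted as ITGA7+/VCAM+/Lin- cells from hindlimb muscle, in 1 10X Genomics 3′ library per strain, each from 2 pooled mice. B10 (C57/Bl10ScsSn, 15 weeks) is the control of mdx (C57BL/10ScSn-Dmdmdx, 11 weeks), and DBA (DBA/2, 13 weeks) is the control of D2-mdx (D2.B10-Dmdmdx, 14 weeks). Both dystrophic strains carry the mdx allele of Dmd in their germline. Age, strain and library cannot be told apart, and a single library per strain allows no test between strains. The intervals given with each value are exact 95% intervals of counting error alone, and they are too narrow for a gene whose UMIs come in bursts from a few cells.

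Chemokines are small secreted proteins that bind receptors on the cell surface and direct the movement of cells towards their source. Cxcl12 acts through Cxcr4 and is also bound by the scavenging receptor Ackr3. Cxcl1 draws neutrophils through Cxcr2, Ccl2 and Ccl7 draw monocytes through Ccr2, and Cxcl10 is induced by interferons and acts through Cxcr3. Il6 and Lif share the signalling receptor chain Il6st, and Csf1 sustains macrophages through Csf1r. In injured muscle these signals are exchanged between satellite cells, vessel-associated cells and infiltrating leukocytes.

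After the filters, 4581 B10, 6313 mdx, 3279 DBA and 5756 D2-mdx cells remained, with median depths of 6675 to 10434 UMIs. Each pair of libraries shared 3 to 8 cell barcodes among the kept cells. Of the cells, 4419, 4810, 2700 and 4161 were myogenic in clusters that were made without the 10 genes, and the 6 MuSC markers, Pax7 among them, were all detected in them in every library. The remainder resembled pericytes, glial, Schwann, endothelial, vascular smooth muscle and white blood cells and tenocytes. The tenocyte-like class also carried markers of fibro-adipogenic progenitors in every library. Dmd was at 324 CPM (the gene's UMIs per 1000000 UMIs of the same cells) in B10 beside 120 in mdx, and 288 in DBA beside 93.5 in D2-mdx, although 3′ tags do not read the mutation and so do not check it. B10 also held 4739 barcodes with fewer than 1000 genes, against 11 to 21 in the other libraries. White blood cell markers, 8 genes in all, summed to 1.88 CPM in the myogenic cells of B10 beside 23.2 in mdx, and 10.2 in DBA beside 403 in D2-mdx. Most of the last value came from cycling progenitor-like cells, and the values are set beside the genes they touch.

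Of the 10 genes, 8 had a promoter sequence in the RefSeq table for GRCm38.p6, and 3 of these are printed because the matched motifs bear on the inflammatory inputs these genes are known for. Each run gives the 250 bases before the gene's start in that table, 5′ to 3′ on the strand of the gene, with the matched motifs in capitals. Gene positions given further on come from a separate annotation, whose Cxcl1 start, 90891241, lies within the end of the Cxcl1 window. The Cxcl1 window is chr5:90890995-90891244 on the plus strand, the Cxcl10 window chr5:92348890-92349139 on the minus strand and the Csf1 window chr3:107760470-107760719 on the minus strand.
Cxcl1: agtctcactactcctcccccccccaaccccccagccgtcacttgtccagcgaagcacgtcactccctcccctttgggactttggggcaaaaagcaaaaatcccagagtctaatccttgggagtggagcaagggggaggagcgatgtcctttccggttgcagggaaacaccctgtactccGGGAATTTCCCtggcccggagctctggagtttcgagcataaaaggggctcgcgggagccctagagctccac
Cxcl10: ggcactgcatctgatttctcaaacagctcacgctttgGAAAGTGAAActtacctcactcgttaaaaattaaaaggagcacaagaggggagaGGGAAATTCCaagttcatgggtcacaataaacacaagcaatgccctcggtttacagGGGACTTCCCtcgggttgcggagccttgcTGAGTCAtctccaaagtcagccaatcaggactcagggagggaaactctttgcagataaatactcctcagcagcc
Csf1: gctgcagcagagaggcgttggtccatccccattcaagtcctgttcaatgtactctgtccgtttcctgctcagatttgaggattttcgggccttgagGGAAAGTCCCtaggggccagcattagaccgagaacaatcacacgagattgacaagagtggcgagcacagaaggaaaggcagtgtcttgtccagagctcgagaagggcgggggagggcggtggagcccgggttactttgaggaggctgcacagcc

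Motifs were searched on both strands. The Cxcl1 capitals mark 2 overlapping matches to the kappaB motif of NF-kB, 71 and 70 bases before the start. In Cxcl10 the capitals mark, from left to right, a match to the interferon-stimulated response element (GAAA, any 2 bases, GAAA) 213 bases before the start, kappaB matches at 159 and 103 bases, and an AP-1 match (TGANTCA) at 74 bases. The Csf1 capitals mark 1 kappaB match at 154 bases. Among the windows not printed, Il6 held a kappaB and an AP-1 match, Lif an AP-1 match, and Cxcl14 a match to the response element above and to the GAS motif TTCNNNGAA, while Cxcr4 and Cxcl12 held none of the 4 motifs. Of 32851 windows of the same length, 3.90% held the kappaB motif, 2.98% the interferon-stimulated response element, 6.75% the AP-1 motif and 7.02% the GAS motif. A match is a description of the letters and was not measured as a bound site.

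To see how the genes differ between dystrophic and control satellite cells, the UMIs of each library were added up across its myogenic cells. Of the 10 genes, 5 reached 10 CPM in B10 or mdx, and 2 of these, Cxcl12 and Cxcr4, were at least 2-fold lower in mdx, where 5.16% of all 8472 genes at that level were as low. None was 2-fold higher in mdx, against 4.65% of all genes. In the other pair 5 genes also reached 10 CPM, of which 1, Cxcr4, was at least 2-fold lower in D2-mdx (5.91% of all 8506 genes) and 2, Ccl2 and Cxcl1, were at least 2-fold higher (5.94%). The median log2 ratio of each pair's 5 genes was -0.67 in mdx relative to B10 and 0.64 in D2-mdx relative to DBA. Over all genes it was -0.03 and -0.07. The 2 sets share Cxcl1, Cxcl12, Cxcr4 and Csf1, but Cxcl10 is in the first alone and Ccl2 in the other alone. The 2 medians are therefore not of the same genes. Cxcl10 reached 10 CPM in B10 alone (14.7, against 9.27 in mdx), and the median of -0.67 is its own ratio. Ccl2 did so in D2-mdx alone (17.7, against 2.55 in DBA). The entry of these genes and the direction of their ratios thus rest on the same values. The same limit applied to all genes. The 10 genes were also chosen with earlier results of these data known.

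**Figure D1:**
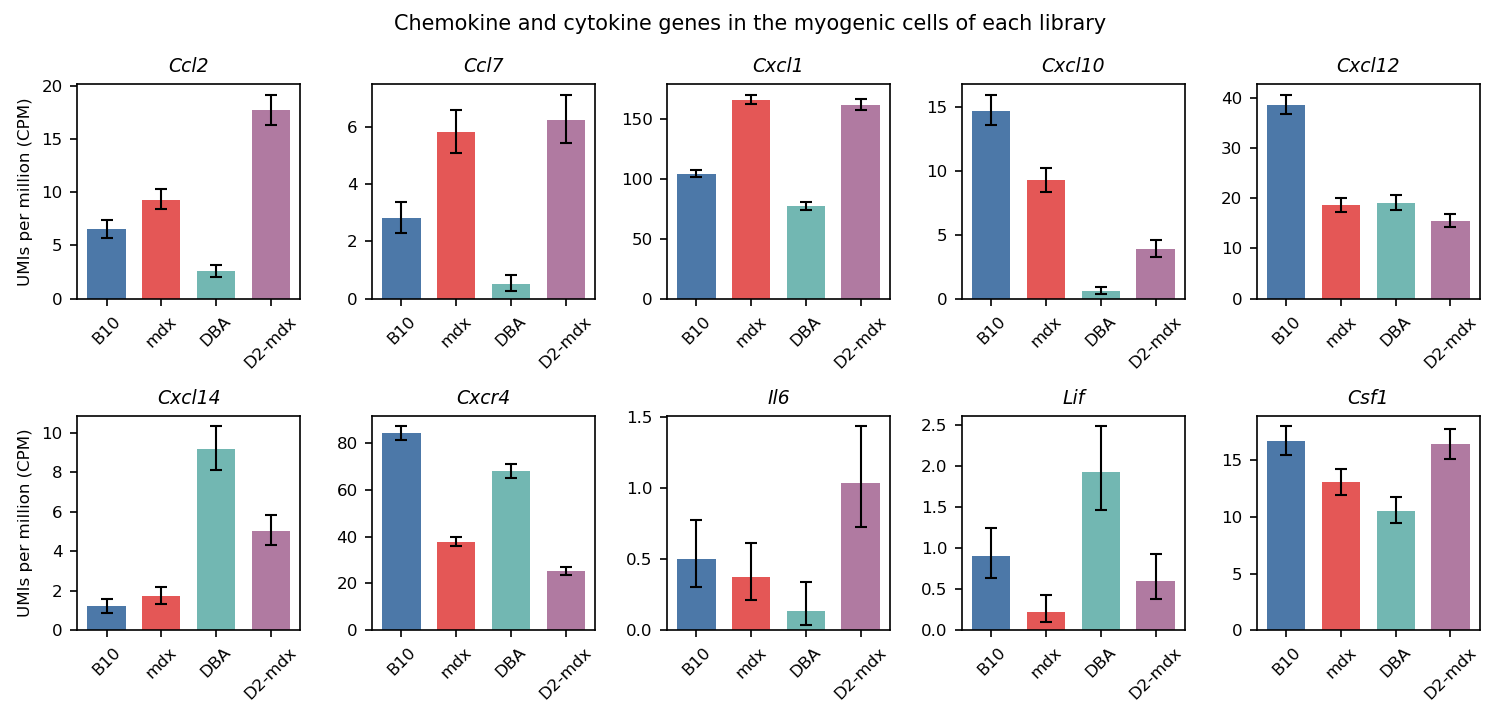
Bars give the level of each of the 10 genes in the myogenic cells of each library, in CPM, and error bars the 95% counting interval, with 1 library per strain. Cxcr4 is at 84.3 and 68.1 in the controls and at 37.8 and 25.3 in the dystrophic libraries, whereas Cxcl1 is at 104 and 77.1 in the controls and at 166 and 162 in the dystrophic libraries.

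**Figure D2:**
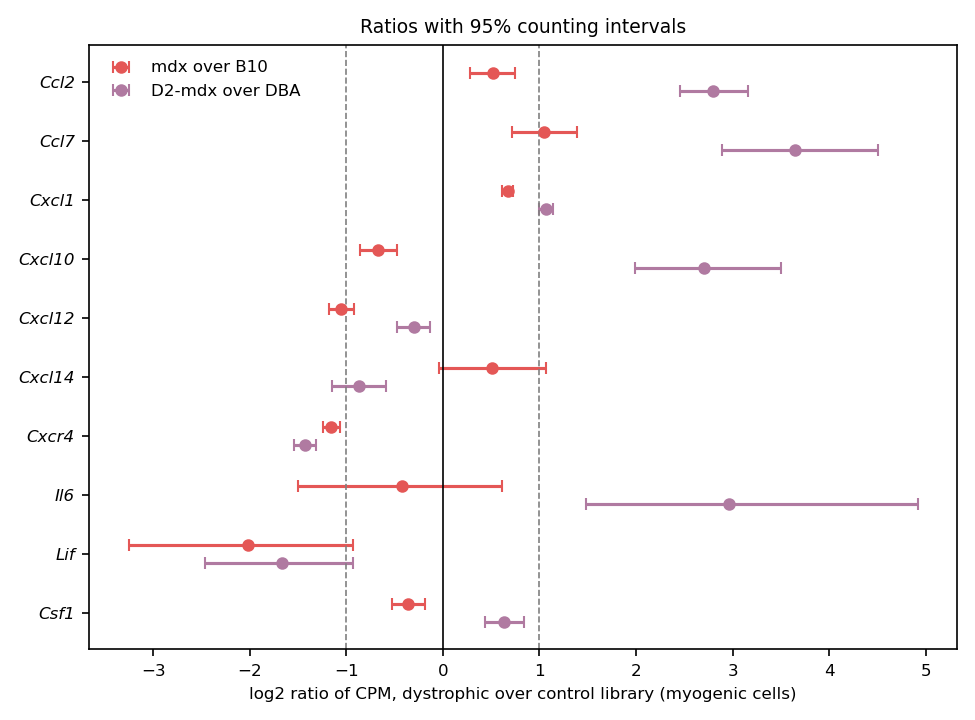
Points give the log2 ratio of each gene in myogenic cells for each dystrophic library over its control, and bars its 95% counting interval, with dashed lines at the 2-fold limits. Cxcr4 lies to the left of 0 and Cxcl1 to the right in both pairs, while Cxcl10 and Csf1 lie on opposite sides of 0 in the 2 pairs.

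Cxcr4, the receptor through which Cxcl12 acts on migrating and quiescent cells, was lower in both dystrophic libraries and in every MuSC-like cluster. The gene (ENSMUSG00000045382) lies on chromosome 1, 128588199 to 128592293, minus strand, on GRCm38. Its level in myogenic cells was 84.3 CPM in B10 (81.5 to 87.2) beside 37.8 in mdx (36.0 to 39.8), and 68.1 in DBA (65.2 to 71.1) beside 25.3 in D2-mdx (23.7 to 27.1). Both controls were above both dystrophic libraries, and no 2 of the 4 intervals overlapped. The log2 ratio was -1.16 (-1.24 to -1.07) in mdx relative to B10 and -1.43 (-1.54 to -1.31) in D2-mdx relative to DBA, and -0.31 for DBA over B10.

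The share of cells with a Cxcr4 UMI followed the level. After each cell was thinned to 3000 UMIs, 20.4% of B10 myogenic cells held a Cxcr4 UMI (19.2 to 21.6%), 11.7% of mdx (10.8 to 12.6%), 19.1% of DBA (17.6 to 20.6%) and 8.41% of D2-mdx cells (7.59 to 9.30%). Without thinning the shares were 46.0, 24.6, 48.3 and 17.8%. In pericyte-like cells, which should lack the receptor, the thinned share was 1.06% in B10 beside 0.163% in mdx, and 0.825% in DBA beside 0.404% in D2-mdx, at median depths of 6920 to 11082 UMIs. The myogenic shares were therefore far above the background of free RNA in each library.

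Within states, Cxcr4 was lower in the dystrophic library of each pair in the MuSC-like and differentiating myocyte-like clusters. In immunomyoblast-like cells the interval held 0, at 74.75 CPM in B10 beside 60.4 in mdx (log2 ratio -0.31, -0.91 to 0.28). MuSC-like 0, the largest cluster, was at 85.0 CPM in B10 beside 45.4 in mdx, and 67.7 in DBA beside 32.7 in D2-mdx. MuSC-like 3, a small cluster led by Esm1, Fosl1 and Tnc, was at 69.9, 21.1, 69.9 and 16.5 CPM. Differentiating myocyte-like cells were at 105, 37.9, 67.3 and 31.0 CPM. Over all MuSC-like cells the log2 ratios were -0.91 (-1.01 to -0.80) and -1.12 (-1.25 to -0.99), smaller in size than over all myogenic cells and, in mdx, short of 2-fold. The DMD enriched-like and cycling progenitor-like cells, more frequent in the dystrophic libraries, were below MuSC-like 0 there. The DMD enriched-like cells were above MuSC-like 3 of the same library. DMD enriched-like cells, named for Postn and collagen genes, were at 29.0 CPM in mdx and 19.8 in D2-mdx, and cycling progenitor-like cells at 16.3 and 8.41 CPM. White blood cell-like cells, the other Cxcr4-bearing type, were at 110 CPM in mdx and 69.1 in D2-mdx.

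Cxcl12, the ligand of Cxcr4, was at its highest outside the myogenic cells. The gene (ENSMUSG00000061353) lies on chromosome 6, 117168535 to 117181367, plus strand. Endothelial cell-like cells were at 2280 CPM in mdx (2217 to 2344) and 2378 in D2-mdx (2271 to 2489), from 253 and 88 cells. Pericyte-like cells were at 1385 CPM in B10 beside 934 in mdx, and 1377 in DBA beside 823 in D2-mdx, and so were lower in both dystrophic libraries, with log2 ratios of -0.57 (-0.65 to -0.48) and -0.74 (-0.79 to -0.69). The B10 level leans on 1 of its 96 pericyte-like cells, which held 232 of the 1430 UMIs. In mdx, DBA and D2-mdx the highest such cell held 34, 58 and 37 UMIs. The thinned shares of pericyte-like cells were close, at 91.5% in B10 beside 89.9% in mdx, and 93.4% in DBA beside 87.6% in D2-mdx. Myogenic cells held 42.0% of the Cxcl12 UMIs of the B10 library but 6.92% of those of mdx, 6.57% of DBA and 5.84% of D2-mdx, where the other cell types were more frequent. In B10 a single tenocyte-like cell held 444 of the 3669 UMIs of the library.

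In myogenic cells Cxcl12 was at 38.6 CPM in B10 (36.7 to 40.6) beside 18.7 in mdx (17.4 to 20), and 19.1 in DBA (17.6 to 20.7) beside 15.5 in D2-mdx (14.2 to 16.9). B10 stood above the other 3 libraries, whose levels were close. The log2 ratio was -1.05 (-1.18 to -0.92) in mdx relative to B10, -0.30 (-0.48 to -0.13) in D2-mdx relative to DBA and -1.02 for DBA over B10. Over all cells rather than myogenic cells the ratio of mdx to B10 turned to 1.22, and it was just short of 2-fold, from -0.996 to -0.907, under TMM or DESeq2 scaling, at most 5% mitochondrial UMIs or the 500-gene limit. Thinned to 3000 UMIs, 11.3% of B10, 6.17% of mdx, 5.81% of DBA and 3.94% of D2-mdx myogenic cells held a Cxcl12 UMI. White blood cell-like cells, not known as a source of Cxcl12, had shares of 5.66% in mdx (2.11 to 11.9%) and 5.19% in D2-mdx (2.27 to 9.98%). The myogenic shares in these 2 libraries lay within those wide intervals, so a share above background was not detectable. In D2-mdx 1 cell held 29 of the 53 Cxcl12 UMIs of the white blood cell-like class, which thus does not measure free RNA alone. B10 had a single white blood cell-like cell, so its share had no such comparison. Its barcodes with fewer than 1000 genes were at 68.9 CPM of Cxcl12 (59.4 to 79.6), above its myogenic cells. The part of free RNA in the B10 level was not tested. In MuSC-like 3 the order was the reverse of that over all myogenic cells, at 19.9 CPM in B10 beside 32.3 in mdx, and 13.2 in DBA beside 39.5 in D2-mdx. The shares there, 6.90% in mdx and 7.48% in D2-mdx, also lay within the intervals of white blood cell-like cells.

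Ackr3, which binds and removes Cxcl12, was lower in both dystrophic libraries as Cxcr4 was. Its level in myogenic cells was 153 CPM in B10 beside 45.6 in mdx, and 124 in DBA beside 51.5 in D2-mdx, with log2 ratios of -1.75 and -1.27. Ackr3 was the only 1 of 22 other chemokine receptors to reach 10 CPM in a library. Of the rest, Ccrl2 followed at 4.98 to 9.88 CPM, Cxcr2 at 0.199 to 0.928, Cx3cr1 at 0 to 1.12 and Ackr1 at 0.0332 to 0.969.

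Cxcl1, the neutrophil chemoattractant, was the most abundant of the 10 genes in myogenic cells and was higher in both dystrophic libraries. The gene (ENSMUSG00000029380) lies on chromosome 5, 90891241 to 90893115, plus strand. Its level was 104 CPM in B10 (101 to 107) beside 166 in mdx (162 to 170), and 77.1 in DBA (74.0 to 80.3) beside 162 in D2-mdx (158 to 166). The dystrophic libraries were near each other and above both controls. The log2 ratio was 0.67 (0.62 to 0.73) in mdx relative to B10 and 1.07 (1.00 to 1.14) in D2-mdx relative to DBA. The dystrophic libraries themselves differed by a log2 ratio of -0.04 (-0.09 to 0.01), D2-mdx over mdx.

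The difference was larger among MuSC-like cells alone. Their Cxcl1 level was 105 CPM in B10 beside 265 in mdx, and 80.5 in DBA beside 238 in D2-mdx, with log2 ratios of 1.33 (1.27 to 1.39) and 1.56 (1.49 to 1.64). Over all myogenic cells, the 1% with the most Cxcl1 UMIs held 20 to 30.5% of them, and the highest cell of each library held 65 to 148. The thinned share of MuSC-like cells with a UMI was 12.7% in B10 (11.7 to 13.7%) beside 25.3% in mdx (23.8 to 26.8%), and 14.7% in DBA (13.3 to 16.1%) beside 29.9% in D2-mdx (28.3 to 31.6%). Unthinned, these shares were 21.1, 33.3, 28.6 and 41.1%. In endothelial cell-like cells the thinned share was 7.11% in mdx (4.27 to 11.0%) and 3.41% in D2-mdx (0.709 to 9.64%).

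Cxcl1 differed between MuSC-like clusters as well as between libraries. MuSC-like 1 is a cluster rich in immediate-early genes, the fast transcriptional response that tissue dissociation is known to set off, and although Cxcl1 was left out of the features used for clustering it was 1 of the cluster's 10 leading genes. There it reached 196 CPM in B10 beside 466 in mdx, and 134 in DBA beside 342 in D2-mdx. In MuSC-like 0 it was at 48.1, 96.8, 46.5 and 143 CPM. The dystrophic library was thus the higher of its pair in both clusters, and the log2 ratios were 1.01 and 1.62 in MuSC-like 0, 1.25 and 1.35 in MuSC-like 1, and 1.45 and 2.11 in MuSC-like 3. The 16 immediate-early and dissociation genes summed to 68634, 85926, 55233 and 77293 CPM in MuSC-like 1 and to 32352, 33025, 28434 and 39999 CPM in MuSC-like 0. This sum was also higher in the dystrophic library of each pair within these 2 clusters, but over all myogenic cells it was 45741 CPM in B10 beside 36129 in mdx, and 37554 in DBA beside 35371 in D2-mdx, and its part in the Cxcl1 levels was not tested. In MuSC-like 3 it was lower in the dystrophic libraries, at 16596 CPM in mdx and 19333 in D2-mdx against 39140 in B10 and 33378 in DBA.

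In differentiating myocyte-like cells, by contrast, Cxcl1 was at 64.4 CPM in B10 beside 6.71 in mdx, and 36.4 in DBA beside 19.7 in D2-mdx, lower in the dystrophic library of each pair. The log2 ratios there were -3.26 (-4.01 to -2.57) and -0.89 (-1.54 to -0.22), from 58 to 253 cells a library. In the same cells the 6 MuSC markers summed to 2504 CPM in B10 beside 670.1 in mdx, and 1555 in DBA beside 794 in D2-mdx. The immediate-early and dissociation genes summed to 37482 and 13349 CPM in the first pair and to 19410 and 15954 in the other, and the part of either in the Cxcl1 levels was not tested. Pericyte-like cells made Cxcl1 too, at 280 CPM in B10 beside 455 in mdx, and 130 in DBA beside 216 in D2-mdx. Its receptor Cxcr2 was almost absent from the sort, at 7.27 CPM in pooled white blood cell-like cells.

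**Figure D3:**
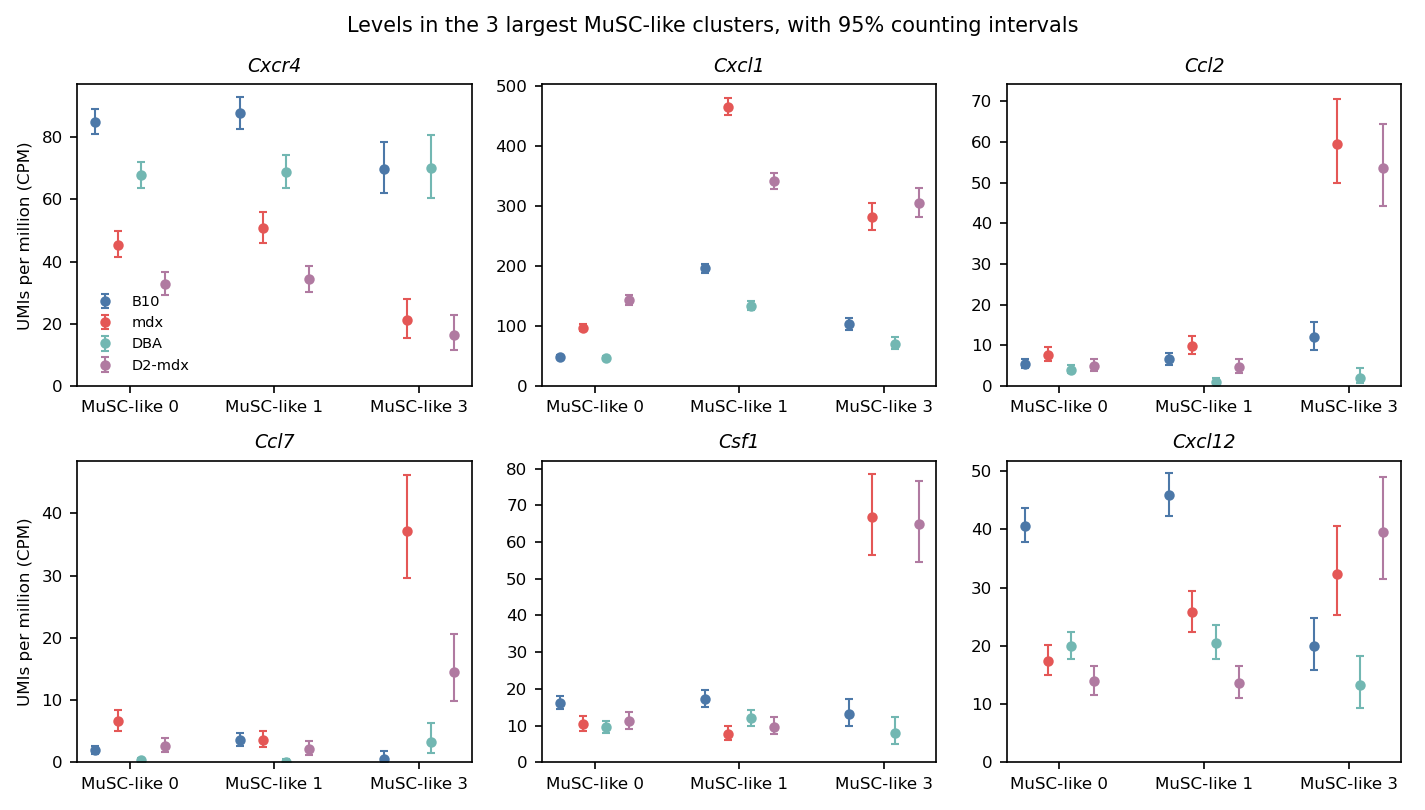
Points give the level, in CPM, of Cxcr4, Cxcl12, Cxcl1, Ccl2, Ccl7 and Csf1 in the 3 largest MuSC-like clusters of each library, and bars the 95% counting interval. Cxcl1 is highest in MuSC-like 1, whereas Ccl2, Ccl7 and Csf1 of the dystrophic libraries are highest in MuSC-like 3, where Csf1 stands at 66.8 in mdx and 64.9 in D2-mdx against 13.2 in B10 and 8.09 in DBA.

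Ccl2 and Ccl7, neighbouring genes for monocyte chemoattractants, were both sparse in myogenic cells and higher in the dystrophic library of each pair. Ccl2 (ENSMUSG00000035385) lies on chromosome 11, 82035571 to 82037453, and Ccl7 (ENSMUSG00000035373) at 82045712 to 82047525 on the same strand. Ccl2 was at 6.52 CPM in B10 (5.75 to 7.36) beside 9.32 in mdx (8.40 to 10.3), and 2.55 in DBA (2.02 to 3.19) beside 17.7 in D2-mdx (16.4 to 19.2). Ccl7 was at 2.81 CPM in B10 beside 5.82 in mdx, and 0.498 in DBA beside 6.25 in D2-mdx. DBA was the lowest library for both genes. The log2 ratios of mdx to B10 were 0.52 (0.28 to 0.75) for Ccl2 and 1.05 (0.72 to 1.39) for Ccl7, and those of D2-mdx to DBA were 2.79 (2.45 to 3.16) and 3.65 (2.90 to 4.51), the latter on 15 UMIs in DBA. Of these UMIs, the 1% of myogenic cells richest in the gene held 74.8 to 98.7% for Ccl2 and 75.2 to 100% for Ccl7, so the levels rest on few cells.

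Within the MuSC-like cells of the dystrophic libraries, Ccl2 was highest in MuSC-like 3. The cluster held 355 cells of B10 and 232 of mdx, with 236 of DBA and 214 of D2-mdx, and its Ccl2 level was 11.9, 59.6, 1.84 and 53.6 CPM. The 2 dystrophic libraries were alike and well above both controls. In the same cluster the 6 MuSC markers summed to 3694 CPM in B10 beside 3101 in mdx, and 3318 in DBA beside 1992 in D2-mdx. They were lower in the dystrophic library of each pair, and the part of this in the Ccl2 levels was not tested. The UMIs came from 26 mdx and 25 D2-mdx cells, of which the 2 highest held 84 of 133 UMIs in mdx and 60 of 114 in D2-mdx. Counting at most 5 UMIs per cell gave 9.20 CPM in B10 beside 23.3 in mdx, and 1.84 in DBA beside 28.7 in D2-mdx, in the same order of dystrophic over control. The thinned share of MuSC-like 3 cells with a Ccl2 UMI was 2.82% in B10 (1.36 to 5.12%) beside 4.74% in mdx (2.39 to 8.33%), and 0.424% in DBA (0.0107 to 2.34%) beside 6.54% in D2-mdx (3.62 to 10.7%). The intervals of mdx and B10 overlap, and those of D2-mdx and DBA do not. In endothelial cell-like cells, which also carry some Ccl2, the share was 1.19% in mdx (0.245 to 3.43%) and 3.41% in D2-mdx (0.709 to 9.64%). These intervals overlap those of MuSC-like 3, so a share of cells above that background was not detectable at this depth.

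Ccl7 in MuSC-like 3 was at 0.497 CPM in B10 beside 37.2 in mdx, and 3.31 in DBA beside 14.6 in D2-mdx. The thinned share was 6.47% in mdx (3.66 to 10.4%) and 2.34% in D2-mdx (0.763 to 5.37%), and 0 of 355 cells in B10 (95% upper bound 1.03%). Among all MuSC-like cells thinned to 3000 UMIs, 6 mdx and 4 D2-mdx cells held UMIs of both genes. Ccl7 was in 10.7% of the mdx cells with Ccl2 and in 1.14% of those without, and in 8.16% and 0.616% in D2-mdx. No B10 or DBA cell held both. B10 had 42 cells with Ccl2 and 22 with Ccl7, and DBA 5 and 5. The DBA counts are too few to show a share like that of mdx.

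White blood cell-like cells were by far the richest in both genes, at 542 CPM of Ccl2 and 406 of Ccl7 in mdx and at 653 and 349 in D2-mdx, and pericyte-like cells were at 163 and 54.1 CPM of Ccl2. In D2-mdx the 50 tenocyte-like cells were above the pericyte-like cells, at 104 CPM of Ccl2 and 56.7 of Ccl7. To set the myogenic levels beside this source, each was expressed as a percent of the level in the white blood cell-like cells of the same library. In MuSC-like 3 Ccl2 stood at 11.0% of that level in mdx and 8.21% in D2-mdx, and Ccl7 at 9.16% and 4.17%. The 8 white blood cell markers stood at 0.116% and 0.263% in the same cells, at 22.9 CPM in mdx and 78.5 in D2-mdx against 1.24 in B10 and 10.3 in DBA, with Ptprc, Cd74, Ctss, S100a8, S100a9, Lyz2, Tyrobp and C1qa all detected in D2-mdx and 6 of the 8 in mdx. The 6 fibro-adipogenic progenitor markers, which include Dcn, summed to 470, 151, 751 and 350 CPM in MuSC-like 3, with 2, 3, 3 and 1 of them at 0. All MuSC-like cells carried such sums too, at 536, 308, 784 and 618 CPM, so the sums do not gauge carry-over of those progenitors. Pericyte markers, 7 in all, summed in MuSC-like 3 to 22.6, 34.1, 26.5 and 43.3 CPM. Leaving out cells with at least 3 UMIs of white blood cell markers or of pericyte markers left Ccl2 at 59.1 CPM in mdx and 58.1 in D2-mdx. With marker sums this low few cells can reach the limit, and free RNA stays in the cells kept. The part of free RNA in the Ccl2 levels was thus not tested. The limit on white blood cell markers was chosen after seeing the data.

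**Figure D4:**
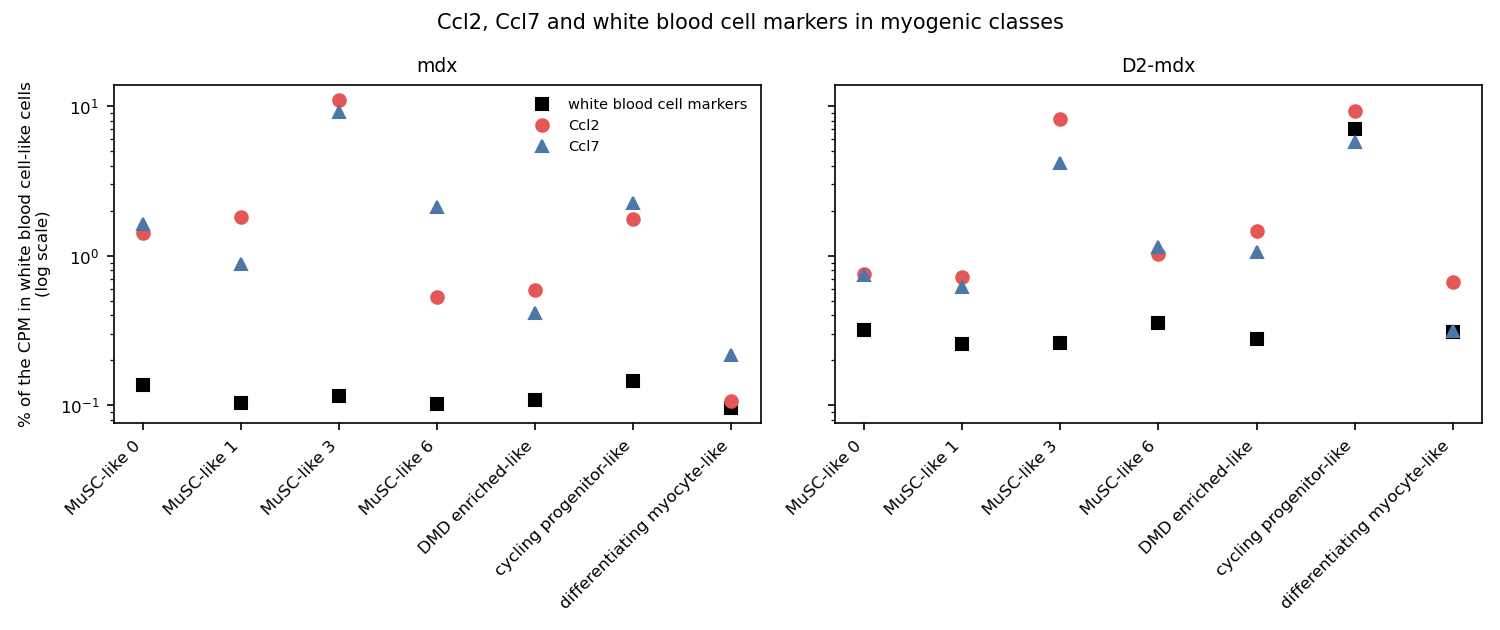
Points give the level of Ccl2, of Ccl7 and of the summed white blood cell markers in 7 myogenic classes of mdx and D2-mdx, as a percent of the level in white blood cell-like cells of the same library, on a log scale. In MuSC-like 3 both chemokines stand at 4.17 to 11.0% while the markers stand at 0.116 and 0.263%, and in the D2-mdx cycling progenitor-like cells the markers stand at 6.97%, near the 9.24% of Ccl2.

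Most of the myogenic Ccl2 UMIs in D2-mdx came from another class. Its 334 cycling progenitor-like cells gave 330 of the 616 myogenic Ccl2 UMIs, at 60.4 CPM, and the 2 highest cells held 122 of these. White blood cell markers were at 2086 CPM in this class, or 6.97% of the white blood cell-like level, and Ccl2 at 9.24%. The 60 cells with at least 3 UMIs of white blood cell markers held 72 Ccl2 UMIs and 67 of the 110 Ccl7 UMIs, and the 35 with at least 3 UMIs of pericyte markers held 123 Ccl2 UMIs. Cells below both limits were at 36.5 CPM of Ccl2. Without the cycling progenitor-like cells of all libraries, the log2 ratio of Ccl2 in D2-mdx relative to DBA went from 2.79 to 1.91 and Ccl2 no longer reached 10 CPM in that pair. The part of white blood cells or doublets in this class was not tested.

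Csf1, which sustains macrophages, showed no common direction over all myogenic cells but a large difference in 1 cluster. The gene (ENSMUSG00000014599) lies on chromosome 3, 107741048 to 107760469, minus strand. Over myogenic cells it was at 16.7 CPM in B10 (666 UMIs) beside 13.0 in mdx (525), and 10.6 in DBA (318) beside 16.4 in D2-mdx (570). The log2 ratios were -0.36 (-0.52 to -0.19) and 0.64 (0.44 to 0.84), of opposite sign. The former was 0.01 when cells with at least 500 genes and no upper limit were kept, and -0.08 in MuSC-like cells alone. In MuSC-like 3 Csf1 was at 13.2 CPM in B10 beside 66.8 in mdx, and 8.09 in DBA beside 64.9 in D2-mdx, with log2 ratios of 2.34 (1.88 to 2.82) and 3.0 (2.35 to 3.72). Here both dystrophic libraries were above both controls. The thinned shares of cells were 3.94% in B10 (2.17 to 6.53%) beside 16.4% in mdx (11.9 to 21.8%). They were 1.69% in DBA (0.464 to 4.28%) beside 11.7% in D2-mdx (7.70 to 16.8%). Both dystrophic intervals lay above both control intervals, but they cover the cells of 1 library per strain and do not measure spread between mice. After thinning, 0 of 81 Schwann cell-like cells of mdx held a UMI (95% upper bound 4.45%), and without thinning the class held 1 UMI. Other mdx classes held more Csf1, at 16.2 CPM in glial cell-like and 27.7 in endothelial cell-like cells. No such comparison was made for D2-mdx.

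Csf1 in MuSC-like 3 was spread over more cells than Ccl2. The UMIs came from 74 of 232 mdx and 59 of 214 D2-mdx cells, and the 2 highest cells held 17 of 149 and 16 of 138 UMIs. With at most 5 UMIs counted per cell the levels were 62.7 CPM in mdx and 59.7 in D2-mdx. The part of the lower MuSC marker sums of this cluster in the dystrophic libraries was not tested for Csf1 either. In MuSC-like 1 the ratio in mdx relative to B10 went the other way, at -1.14 (-1.56 to -0.74), and in D2-mdx relative to DBA it was -0.30 (-0.74 to 0.14). White blood cell-like cells were at 4.61 CPM of Csf1 in mdx, less than MuSC-like 3 in the same library, and at 61.1 in D2-mdx. Pericyte-like cells were at 79.4 CPM in B10 beside 48.2 in mdx, and 69.3 in DBA beside 50.1 in D2-mdx, lower in the dystrophic libraries, with log2 ratios of -0.72 (-1.08 to -0.34) and -0.47 (-0.67 to -0.26). The receptor Csf1r was at 326 CPM in pooled white blood cell-like cells and at 0.125 to 1.30 CPM in myogenic cells.

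Cxcl10, the interferon-induced chemokine, was higher in both B10-background libraries than in both DBA-background libraries. The gene (ENSMUSG00000034855) lies on chromosome 5, 92346638 to 92348889, minus strand. Its level in myogenic cells was 14.7 CPM in B10 (587 UMIs) beside 9.27 in mdx (373), and 0.597 in DBA (18) beside 3.89 in D2-mdx (135). The counting intervals of the 2 backgrounds did not overlap, but they are too narrow for this gene. The 1% of myogenic cells richest in Cxcl10 held 87.9 to 100% of its UMIs. The log2 ratio was -4.62 (-5.39 to -3.95) in DBA relative to B10 and -1.25 (-1.55 to -0.97) in D2-mdx relative to mdx. For disease it was -0.67 (-0.86 to -0.48) in mdx relative to B10 and 2.70 (1.99 to 3.5) in D2-mdx relative to DBA, the latter on 18 UMIs in DBA. These UMIs came from 109, 83, 11 and 42 cells, and 59 of the 135 in D2-mdx were in a single immunomyoblast-like cell. Immunomyoblast-like cells, named for Ifit1 and other interferon-induced genes, numbered 108 in B10 beside 82 in mdx, and 9 in DBA beside 32 in D2-mdx and had a Cxcl10 UMI in 4, 3, 0 and 3 cells.

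The 9 interferon-induced genes counted in the files followed the same order of libraries in myogenic cells, with sums of 106 CPM in B10 beside 101 in mdx, and 36.6 in DBA beside 49.0 in D2-mdx. Of these genes 4 reached 10 CPM in B10 or mdx, of which Iigp1 was 2-fold higher in mdx, and 2 did in DBA or D2-mdx, with no call. Isg15, a ubiquitin-like protein induced by interferon, was at 27.2, 25.4, 7.0 and 13.2 CPM. Outside the myogenic cells Cxcl10 was at 79.4 CPM in pericyte-like cells of B10 beside 36.4 in mdx, and 5.31 in DBA beside 24.5 in D2-mdx, in the same order as the myogenic levels. It was also at 60.9 CPM in white blood cell-like and 63.5 in glial cell-like cells of mdx. Cxcr3, its receptor, had 1 UMI in all myogenic cells, in D2-mdx.

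Cxcl14, a chemokine made by fibroblasts and epithelia, had the opposite order of backgrounds. The gene (ENSMUSG00000021508) lies on chromosome 13, 56288643 to 56296551, minus strand. Myogenic cells were at 1.20 CPM in B10 (48 UMIs) beside 1.71 in mdx (69), and 9.19 in DBA (277) beside 5.04 in D2-mdx (175). Both DBA-background libraries were above both B10-background libraries, with log2 ratios of 2.93 (2.49 to 3.41) in DBA relative to B10 and 1.55 (1.14 to 1.98) in D2-mdx relative to mdx. For disease the ratios were 0.51 (-0.04 to 1.07), an interval that holds 0, and -0.87 (-1.15 to -0.59). The latter turned to 0.85 when cells with at least 500 genes and no upper limit were kept, and to 1.29 over all cells. In thinned MuSC-like cells the shares with a UMI were 0.266% in B10 beside 0.513% in mdx, and 2.63% in DBA beside 1.68% in D2-mdx, and in endothelial cell-like cells 0 of 253 in mdx (95% upper bound 1.45%). MuSC-like 3 was again the highest of the MuSC-like clusters in 3 libraries, at 0.995 CPM in B10 beside 15.2 in mdx, and 16.2 in DBA beside 26.3 in D2-mdx.

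The main sources of Cxcl14 were not myogenic. Tenocyte-like cells were at 548, 490, 840 and 778 CPM, from 7 to 50 cells. In this class 6 fibro-adipogenic progenitor markers summed to 14347, 12305, 15123 and 11277 CPM. Its 6 tenocyte markers summed to 417, 9238, 6053 and 6279 CPM, so the class is not of tenocytes alone. Schwann cell-like cells were at 412 CPM in mdx and 218 in D2-mdx. The dystrophic libraries differed in their white blood cell-like cells, with 1 UMI and 0.922 CPM in mdx and 318 UMIs and 182 CPM in D2-mdx, where 42 of 154 cells held a UMI.

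Il6, the cytokine of acute inflammation and of contracting muscle, was nearly absent from sorted myogenic cells and present in pericyte-like cells. The gene (ENSMUSG00000025746) lies on chromosome 5, 30013114 to 30019981, plus strand. Myogenic cells held 20 Il6 UMIs in B10 beside 15 in mdx, and 4 in DBA beside 36 in D2-mdx, or 0.501, 0.373, 0.133 and 1.04 CPM. The log2 ratios were -0.43 (-1.50 to 0.61) and 2.96 (1.48 to 4.92), the latter on 4 UMIs in DBA, and the shares of thinned MuSC-like cells, at most 0.269%, lay below the upper bound of 1.04% that 0 of 353 glial cell-like cells left in mdx. A share of cells above that background was not detectable at this depth. The interval of D2-mdx relative to DBA leaves out 0 but rests on few UMIs. Of the 36 UMIs in D2-mdx, 12 were in MuSC-like 6, at 16.0 CPM against 1.01 in DBA on 1 UMI. In pericyte-like cells Il6 was at 35.8 CPM in B10 (25.2 to 49.4) beside 122 in mdx (112 to 132), and 35.4 in DBA (30.6 to 40.6) beside 72.8 in D2-mdx (66.9 to 79.0). Both dystrophic libraries were above both controls, with log2 ratios of 1.76 (1.29 to 2.28) and 1.04 (0.81 to 1.28). The thinned shares of pericyte-like cells with a UMI were 3.19% in B10 beside 21.1% in mdx, and 6.80% in DBA beside 13.5% in D2-mdx.

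Lif, a relative of Il6 that sustains myoblast proliferation, was at or below 1.92 CPM in the myogenic cells of every library. The gene (ENSMUSG00000034394) lies on chromosome 11, 4257557 to 4272514, plus strand. Myogenic cells held 36 UMIs in B10 beside 9 in mdx, and 58 in DBA beside 21 in D2-mdx, or 0.903, 0.224, 1.92 and 0.604 CPM. Both controls were above the dystrophic library of their pair, with log2 ratios of -2.01 (-3.25 to -0.93) and -1.67 (-2.47 to -0.93). Lif was below 5 CPM in every class with at least 50 cells. Nearly all its UMIs were myogenic in the controls, at 97.3% in B10 and 98.3% in DBA, and 47.4% in mdx and 67.7% in D2-mdx.

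**Figure D5:**
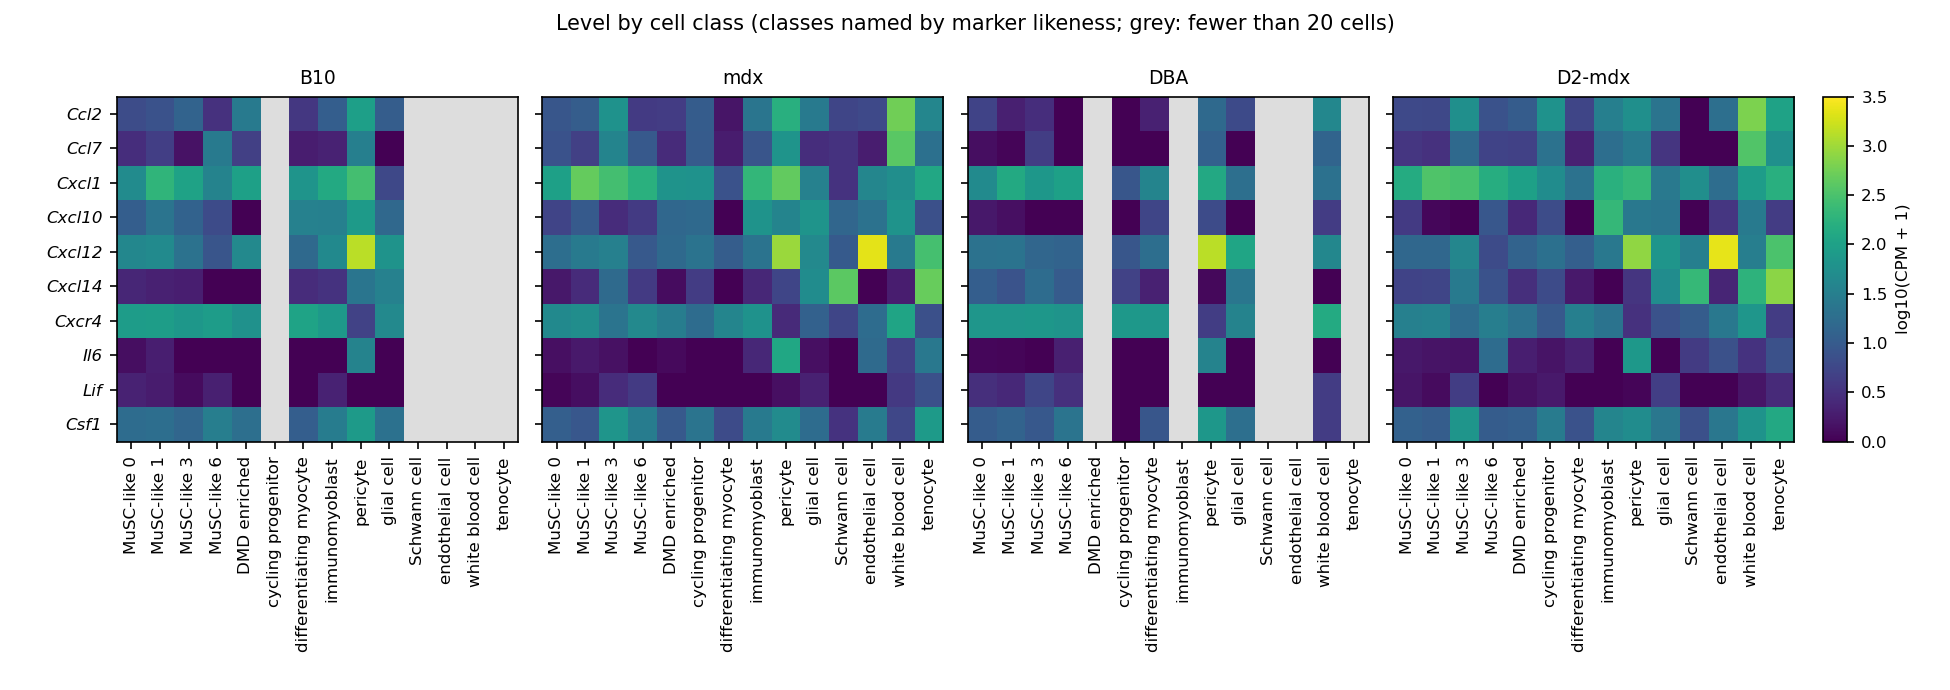
Colour gives log10 of the level plus 1, in CPM, of each gene in each cell class of each library, and grey marks classes with fewer than 20 cells. Cxcr4 is lit across myogenic classes and white blood cells, Cxcl12 in pericytes and endothelial cells, Il6 in pericytes, Ccl2 and Ccl7 in white blood cells and pericytes, while Lif is dark throughout.

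The receptors of the Il6 family were measured in the same myogenic cells. Il6st, the shared signalling chain, was at 82.1 CPM in B10 beside 67.7 in mdx, and 82.0 in DBA beside 54.6 in D2-mdx. Lifr, which binds Lif, was at 50.4, 22.5, 63.2 and 25.7 CPM, with log2 ratios of -1.16 and -1.30. Il6ra, which binds Il6, was at 0.226, 1.34, 0.166 and 0.921 CPM. Of the 17 family, receptor and signalling genes listed, 11 reached 10 CPM in each pair. Among them, Lifr and Il11ra1 were 2-fold lower in mdx and Osmr 2-fold higher, and in D2-mdx Lifr and Il11ra1 were lower and Osmr higher. Osmr, the receptor of oncostatin M, was at 6.84, 19.4, 5.04 and 13.2 CPM. Socs3, the feedback inhibitor of this pathway, was at 1109, 1079, 939 and 1330 CPM.

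Of 34 other chemokine ligand genes, 28 had a UMI in myogenic cells. Ccl19, which acts through Ccr7, led them at 77.4 CPM in B10 beside 4.47 in mdx, and 66.9 in DBA beside 10.5 in D2-mdx. Like Cxcr4 it was at least 2-fold lower in both dystrophic libraries, and it was at 347 CPM in pooled pericyte-like cells. Its log2 ratios, larger in size than those of Cxcr4, were -4.11 in mdx relative to B10 and -2.67 in D2-mdx relative to DBA. Ccl27a, at 28.1, 24.8, 32.7 and 28.8 CPM, and Ccl25, at 10.8, 12.4, 13.4 and 11.5 CPM, differed little. Ccl11, an eosinophil chemoattractant, was at 24.2, 10.4, 6.34 and 9.24 CPM, 2-fold lower in mdx than in B10, and was at 1019 CPM in pooled pericyte-like cells. Pf4 was at 1.53, 3.48, 11.5 and 9.81 CPM and at 980 CPM in pooled white blood cell-like cells. Of the 4 genes that reached 10 CPM in B10 or mdx, 2 were lower and none higher. Of the 5 in DBA or D2-mdx, Ccl19 was lower and Cxcl2 higher, at 0.232 and 18.8 CPM, with 1325 CPM of Cxcl2 in pooled white blood cell-like cells. The receptor of Ccl2 and Ccl7, Ccr2, was at 321 CPM in those cells and at most 0.633 CPM in myogenic cells.

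Among 16 other cytokines Mif led, at 209, 229, 231 and 351 CPM, followed by Tnfsf12 at 35.5 to 59.3, Il18 at 15.0 to 20.3, Il15 at 0.577 to 12.6 and Tnfsf9 at 2.51 to 2.79 CPM. None of the 3 that reached 10 CPM in B10 or mdx was called, and of the 4 in DBA or D2-mdx, Il15 was higher in D2-mdx, at 12.6 CPM against 3.62. Of 15 NF-kB response genes counted, 12 reached 10 CPM in each pair. Zfp36 was 2-fold lower in mdx, at 392 CPM against 835, and Nfkbia, Nfkbie and Ier3 were higher in D2-mdx. Nfkbia, the feedback inhibitor of NF-kB, was at 414, 404, 143 and 318 CPM. The 15 genes summed to 2362 CPM in B10 beside 1574 in mdx, and 1410 in DBA beside 1486 in D2-mdx. Their part in the chemokine levels was not tested. Of the 16 immediate-early and dissociation genes, all at 10 CPM or more, Fosb and Nr4a1 were 2-fold lower in mdx, Hspa1b lower in D2-mdx and Atf3 higher in D2-mdx. The 5 most abundant were Fos at 7124 to 8898 CPM, Jun at 6215 to 7893, Egr1 at 3121 to 6315, Jund at 3248 to 4382 and Junb at 3145 to 3801. None of the 7 other colony stimulating factor and receptor genes reached 10 CPM.

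Likeness across cell classes was described by Pearson's r of log2(CPM + 1) over 38 sums of a library and a class with at least 50 cells, among 12623 genes, where sums of a library share its depth and free RNA. Ccl2 and Ccl7 were each other's nearest gene, at 0.85. Cxcr4 was most like Chd7 at 0.89, with Plcl2 and Slc9a7 next, and Cxcl12 most like Epas1 at 0.93, with Pdgfd and Tnfrsf1a next. Genes like Cxcl1 included Cited2, at 0.81, and Prelp, and Csf1 most like Srxn1 at 0.83, Mgat2 and Tspan4. Cxcl10 was most like the interferon-induced genes Gbp3, Isg15 and Ifit3, at 0.76, 0.76 and 0.75. Il6 was most like Pawr, Procr and Gata6, from 0.91 to 0.90, and the other nearest genes were Tmem106a and Arhgdib for Ccl2, Apbb1ip and B4galnt1 for Ccl7, Col9a2, Efhd1 and Klrb1a for Cxcl14, and Mmp19 and Hivep3 for Lif, whose best value was 0.66.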

How the data were processed

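Satellite cells of 4 strains were profiled with 10X 3′ chemistry, 1 library per strain. The deposited matrices hold UMI counts per gene and cell, which the authors made with Cell Ranger 3.0.1 on mm10. Cells were kept when they had 1000 to 5000 genes and no more than 8% of UMIs from mitochondria, and Scrublet's highest scores were removed at 0.008 per 1000 cells (2.70 to 5.34% of cells). Kept UMIs per library ranged from 37024800 to 52732731. Clusters were made in Seurat 5.3.0 (CCA integration, 2000 features, 30 dimensions, resolution 0.1, and 0.2 for myogenic cells) with 139 member and list genes left out of the features, and were named from markers. A small myogenic cluster led by Cd74 and Ptprc (11 mdx and 9 D2-mdx cells) was left out of myogenic cells.

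UMI counts were summed per library and class and divided by the class total (CPM). Exact Poisson intervals were given for levels, Clopper-Pearson intervals for shares after thinning to 3000 UMIs, and intervals of log2 ratios from the binomial share of 2 counts. A gene was called at a log2 ratio of at least 1 or at most -1 among genes that reached 10 CPM in either library compared. With 1 library per strain no test was made. The scripts were tested on simulated data.

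The members and lists were chosen with earlier results of these data known. Named besides the 10 members were 8 receptors and 2 feedback genes, the 5 most abundant genes of the chemokine ligand, chemokine receptor, cytokine, and NF-kB with immediate-early lists, list genes that were called, and the 3 genes most like each member (pseudocount 1). A few genes that these rules select are not reported here. Python 3.11.15, scanpy 1.11.5 and R were used, with edgeR 4.0.16 and DESeq2 1.42.0 for size factors alone.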

Additional observations from a re-analysis of the deposited data

Results flagged for a closer look

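In myogenic cells the log2 ratio of Cxcl10 was -0.67 for mdx over B10 and 2.7 in D2-mdx relative to DBA, and that of Csf1 was -0.36 and 0.64. Each gene differed in opposite directions in the 2 pairs, although Csf1 in mdx was at 0.01 when cells with at least 500 genes and no upper limit were kept and at -0.08 in MuSC-like cells alone, and with 1 library per strain the difference between the pairs was not tested. Cxcl12 was also present in barcodes with fewer than 1000 genes, which enter no comparison, at 68.9 CPM in B10 (185 UMIs) against 38.6 CPM in myogenic cells, and at 124.7 CPM in mdx (17 UMIs of 21 barcodes) against 18.7.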

How the results depend on the processing

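Of 279 member ratios under alternatives, 212 stayed within the counting interval of the reported value, 66 moved and 1 called value reversed (Cxcl12, mdx over B10, 1.22 over all cells). In all 7 took the other sign, the rest being Il6 in mdx with at least 500 genes (0.42), by thinned shares (0.54) and over all cells (3.23), Csf1 in mdx with at least 500 genes (0.01), and Cxcl14 in D2-mdx with at least 500 genes (0.85) and over all cells (1.29). The cause was not tested. The count of members lower in mdx, 2 as reported, was 1 with at least 500 genes and no upper limit, at most 5% mitochondrial UMIs, TMM, DESeq2 size factors, a minimum of 50 CPM or all cells (Cxcr4 each), 1 in MuSC-like cells alone (Cxcl10, with neither Cxcl12 nor Cxcr4), 0 by thinned shares, and 3 with no minimum (Cxcl12, Cxcr4, Lif). The count higher in mdx, 0 as reported, was 1 by means of single cells (Cxcl1) or with no minimum (Ccl7), 2 in MuSC-like cells (Ccl2, Cxcl1) and 5 over all cells. In D2-mdx, 2 members rather than 1 were lower with no minimum (Cxcr4, Lif). The count higher in D2-mdx, 2 as reported, was 1 with at least 500 genes, thinned shares, a 50 CPM minimum, without cycling progenitor-like cells, or with at most 5 UMIs per cell, 4 over all cells and 5 with no minimum. The last 2 of the settings giving 1 were chosen after seeing the data. The members that met the limit changed with the setting, and no share over all genes is given for the alternatives. In mdx or B10 they were 5 as reported, 6 in MuSC-like cells, 9 over all cells, 10 with no minimum and 2 at 50 CPM. In D2-mdx or DBA they were 5 as reported, 8 over all cells, 10 with no minimum and 2 at 50 CPM. There 6 met it with at least 500 genes and 4 without cycling progenitor-like cells. Cxcr4 ranged from -1.31 to -0.80 in mdx over B10 and from -1.87 to -1.12 in D2-mdx over DBA. Shares of cells moved in 33 of 40 values without thinning and in 23 of 40 when thinned to 2000 UMIs, by construction. No paired analysis was possible because each strain is 1 library. Il6, Lif, Ccl7 and Cxcl10 are limited by low counts.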
